A study of Mus musculus with 7 samples.

Results

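Peaks of active histone marks were examined at 10 genes of fibroblast growth factor (FGF) signalling in mouse primary chondrocytes and in primary dermal fibroblasts (DF). The genes were taken by name and not by a measured value, although earlier results of these data were known at the time. They were the receptors Fgfr1, Fgfr2, Fgfr3 and Fgfr4, the ligands Fgf2, Fgf7 and Fgf18, and the feedback inhibitors Spry2, Spry4 and Dusp6. All 10 had a position in mm9 and in GRCm38 and were set beside 18203 protein-coding genes. ChIP-Seq of these cells had been carried out to search for enhancers of Sox9, with DF as the negative control. Chondrocytes had 2 H3K27ac libraries and 1 H3K4me2 library, DF had 1 H3K27ac library, and 2 further chondrocyte H3K27ac libraries came from WT and from E160Δ/Δ E308Δ/Δ mice. These gave 6 peak lists for 7 samples, the seventh being an input library that was not analysed here.

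The chondrocytes were released by collagenase from the rib cartilage of newborn mice, and the fibroblasts from the dorsal skin of newborn mice. E160Δ/Δ E308Δ/Δ mice were made by genome editing and lacked the Sox9 enhancers E160 and E308 on both copies of the chromosome. No genotype was stated for the other chondrocytes or for DF, and the number of mice behind each library was not given in the sources used here. The acetylation H3K27ac labels regulatory DNA in use, whereas the methylation H3K4me2 also covers promoters and enhancers that lack acetylation. No group except chondrocyte H3K27ac had more than 1 library, so presence or absence of a peak is described without a test or a p-value.

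FGFs bind receptor tyrosine kinases at the cell surface and switch on the MAP kinase cascade through the adaptor Frs2. In growth cartilage, Fgfr3 restrains the proliferation of chondrocytes and activating mutations of it cause achondroplasia, whereas Fgf18 is a main ligand of cartilage, Fgf2 is a matrix-bound ligand with broad receptor use and Fgf7 is a mesenchymal ligand that acts on epithelial Fgfr2. Spry2 and Spry4 block the pathway upstream of the MAP kinases, and Dusp6 is a phosphatase that inactivates MAP kinases. All 3 inhibitors are themselves induced by FGF signals.

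A promoter counted as marked if any part of a peak fell less than 1 kb from the TSS, and a peak was called near a gene when it lay in the gene or within 50 kb of it. Scores cannot be compared between lists, so each peak is given by its rank, the percentage of peaks in its own list with a score at least as high. Replicate 2 carried GRCm38 coordinates (43.1% of promoters marked with GRCm38 positions and 6.30% with mm9 positions) and the other 5 lists mm9 coordinates. Replicate 2 was therefore placed by distance from the TSS and never by coordinate. The lists held 19454 to 66355 peaks on the autosomes and X and give no read numbers, so that library depth is unknown. Of 8 chondrocyte marker promoters, including Acan and Comp, 5 to 7 were marked in the 4 chondrocyte H3K27ac lists and 1, that of Sox9, in DF. The 5 were those of replicate 1, which lacked Sox9 and Col2a1, both marked in replicate 2, WT and E160Δ/Δ E308Δ/Δ. Of 8 fibroblast markers, 4 were marked in DF (Twist2, Dpt, Lum and Pdgfra, with Dpt in no chondrocyte H3K27ac list) and 4 to 7 in the chondrocyte H3K27ac lists. The collagen genes Col1a1, Col1a2 and Col3a1 were marked in all 4 chondrocyte H3K27ac lists and not in DF, whose nearest peaks lay 21.2, 12.9 and 14.1 kb from their TSSs. The paper, in contrast, describes DF peaks at Col1a1 and high expression of that gene in DF. The DF list used here held 0 peaks in Col1a1, and why it differs was not tested. Of 4 osteoblast markers, Runx2 was marked in all 5 H3K27ac lists and Sp7 in WT only. No promoter of the skeletal muscle, immune or keratinocyte markers was marked in an H3K27ac list, and that of the endothelial receptor Tek was marked in DF.

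All 3 feedback inhibitors were marked in all 6 lists. Of the 4 receptors, 3 were marked in each chondrocyte H3K27ac list and 2 in DF, and of the 3 ligands, 2 were marked in both chondrocyte replicates and in DF and 3 in WT and E160Δ/Δ E308Δ/Δ. All 10 genes had a peak in the gene or within 50 kb in every list, as had 75.1% of all genes in replicate 1, 70.7% in replicate 2, 75.7% in WT, 72.7% in E160Δ/Δ E308Δ/Δ, 87.1% for H3K4me2 and 74.9% in DF. At the TSS itself, 8 of the 10 promoters were marked in replicate 1 (44.7% of all genes), 8 in replicate 2 (43.1%), 9 in WT (50.5%), 9 in E160Δ/Δ E308Δ/Δ (47.6%), 7 for H3K4me2 (66.8%) and 7 in DF (48.1%). Fgfr1, Fgf2, Spry2, Spry4 and Dusp6 were marked in every list, and Fgfr2 and Fgf7 in every H3K27ac list, as were 37.1% of all promoters.

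**Figure D1:**
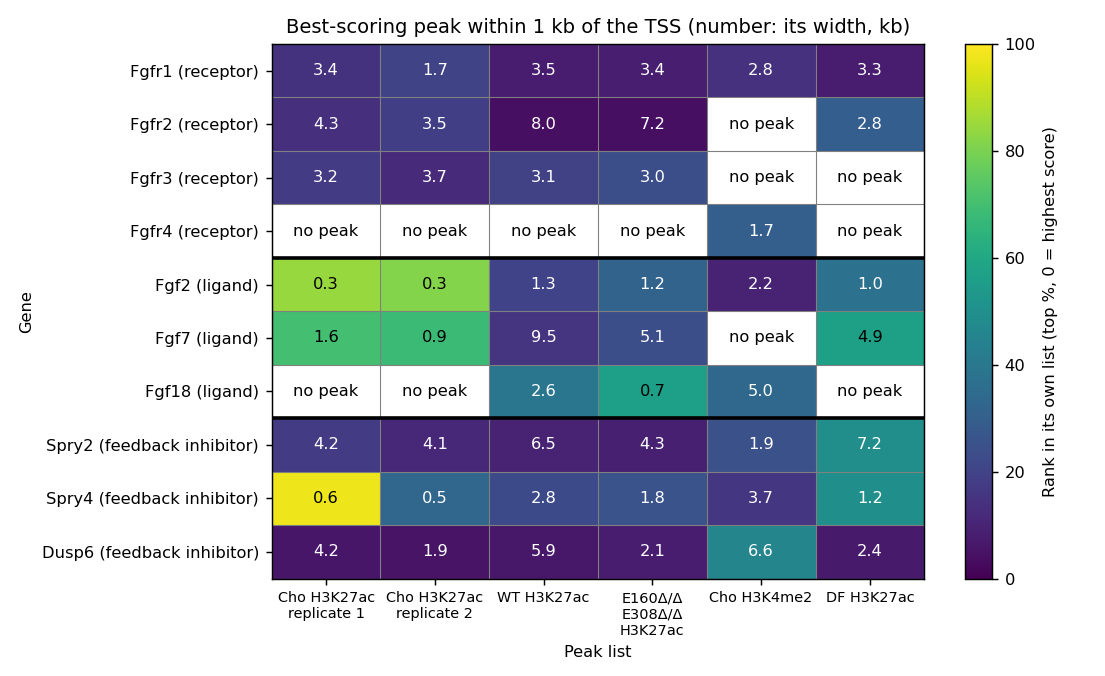
Best-scoring peak within 1 kb of the TSS of each of the 10 genes (rows, by role) in each of the 6 lists (columns). Colour is the rank of the peak in its own list in percent, the number is its width in kb, and white cells had no peak. Fgfr3 was marked in the 4 chondrocyte H3K27ac lists and not in DF, and Fgfr4 only for H3K4me2.

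Fgfr3 was the only member whose promoter was marked in all 4 chondrocyte H3K27ac lists and not in DF, a pattern seen at 1.43% of all genes. The peak of replicate 1 covered 3.23 kb from the TSS into the gene (chr5:34064412-34067642, mm9) with a rank of 17.8%. Replicate 2 had a peak of 3.70 kb (12.4%), WT a peak of 3.06 kb (19.2%) and E160Δ/Δ E308Δ/Δ a peak of 2.97 kb (24.0%), both of the latter accompanied by a small separate peak upstream of the TSS. The 4 peaks began within 1 kb of the TSS and were alike in width. Fgfr3 was also the 1 member promoter marked in replicate 1 and not in DF (3.03% of all genes), and with Fgf18 it made 2 for WT without DF (4.61%).

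In DF, no peak lay between the window start 50 kb upstream and the promoter of Letm1, a mitochondrial gene next to Fgfr3, 60.3 kb downstream of the TSS. That Letm1 peak (0.900 kb, rank 32.7%) was the only DF peak near Fgfr3. The H3K4me2 list, which has the same format as the DF list, also lacked a peak at the Fgfr3 promoter although acetylation was found there in the same cell type, with its nearest peak at 3.84 kb. Replicate 1, a list of that format too, had the promoter peak given above. Of the promoters under a WT peak of 2 to 5 kb and marked in all 4 chondrocyte H3K27ac lists, 2215 in number, 2.39% had no DF peak and 2.89% had no H3K4me2 peak. The promoters without both numbered 7, with Fgfr3 among them. Whether the missing DF peak reflects the cells or the way the list was made was not tested.

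The sequence of the Fgfr3 promoter is shown beside that of Fgfr4, whose promoter carried H3K4me2 alone, because both are rich in GC and hold the same number of GC boxes. Each runs from 250 bases before to 50 bases after the TSS (RefSeq, GRCm38.p6, the Fgfr3 and Fgfr4 strand, which is plus for both), and capitals mark GGGCGG or its reverse complement.
Fgfr3, chr5:33721474-33721773: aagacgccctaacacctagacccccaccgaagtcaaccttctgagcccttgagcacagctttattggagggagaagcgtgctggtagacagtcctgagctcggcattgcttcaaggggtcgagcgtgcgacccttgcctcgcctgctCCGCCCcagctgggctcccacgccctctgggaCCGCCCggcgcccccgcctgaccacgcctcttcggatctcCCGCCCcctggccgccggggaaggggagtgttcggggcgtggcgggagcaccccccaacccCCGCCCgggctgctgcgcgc
Fgfr4, chr13:55152568-55152867: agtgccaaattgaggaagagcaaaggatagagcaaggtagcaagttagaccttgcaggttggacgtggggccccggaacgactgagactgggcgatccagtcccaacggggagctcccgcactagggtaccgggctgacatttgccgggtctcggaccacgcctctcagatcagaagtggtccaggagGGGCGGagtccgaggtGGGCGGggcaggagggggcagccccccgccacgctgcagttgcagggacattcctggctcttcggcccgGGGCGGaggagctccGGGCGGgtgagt
The Fgfr3 window had 69.7% GC and the Fgfr4 window 65.3% GC, and each held 4 GC boxes. Their ratios of observed to expected CpG were 0.726 and 0.649, where the median over 32851 mouse promoters was 0.384 and 35.8% reached 0.6. GGGCGG was present in 35.7% of those promoters. A second RefSeq promoter of Fgfr3, further downstream, had 73.0% GC and held 2 GC boxes.

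Upstream of Fgfr3, chondrocytes had a series of H3K27ac peaks, in intergenic sequence and in Tacc3, that DF lacked. Replicate 1 had 8 peaks near the gene, 6 of them, the promoter included, without a DF peak, and 5 of these 6 were also present in replicate 2 and WT. The broadest region lay between Tacc3 and Fgfr3. There replicate 1 had peaks of 0.734 and 2.49 kb (ranks 93.6% and 78.0%), replicate 2 peaks of 0.496 and 3.61 kb (43.9% and 19.3%), and WT a peak of 4.17 kb from 29.9 to 25.8 kb upstream (chr5:34034452-34038617, rank 19.7%, 18.7-fold over the local background). E160Δ/Δ E308Δ/Δ chondrocytes had 3 peaks there, of 0.670, 0.946 and 1.66 kb, and neither H3K4me2 nor DF had any. The region thus ranked high in WT and replicate 2 and low in replicate 1.

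Closer to the TSS, a narrow peak at 4.4 kb upstream was found in all 4 chondrocyte H3K27ac lists and for H3K4me2. It was 0.753 kb wide in replicate 1 (rank 48.3%), 0.427 kb in replicate 2 (48.1%), 0.626 kb in WT (31.8%) and 0.509 kb in E160Δ/Δ E308Δ/Δ (40.1%). The highest-scoring replicate 1 peak near Fgfr3 without a DF peak, apart from the promoter, lay in an intron of Tacc3, 48.4 to 47.2 kb upstream (chr5:34016004-34017223, rank 41.5%). It was present in replicate 2, WT and H3K4me2 and absent from E160Δ/Δ E308Δ/Δ, where WT had only a small peak (0.572 kb, rank 95.4%). Of the WT peaks missing in the deletion library, the best-scoring was at 16.0 kb upstream (chr5:34048006-34048733, rank 72.4%).

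**Figure D2:**
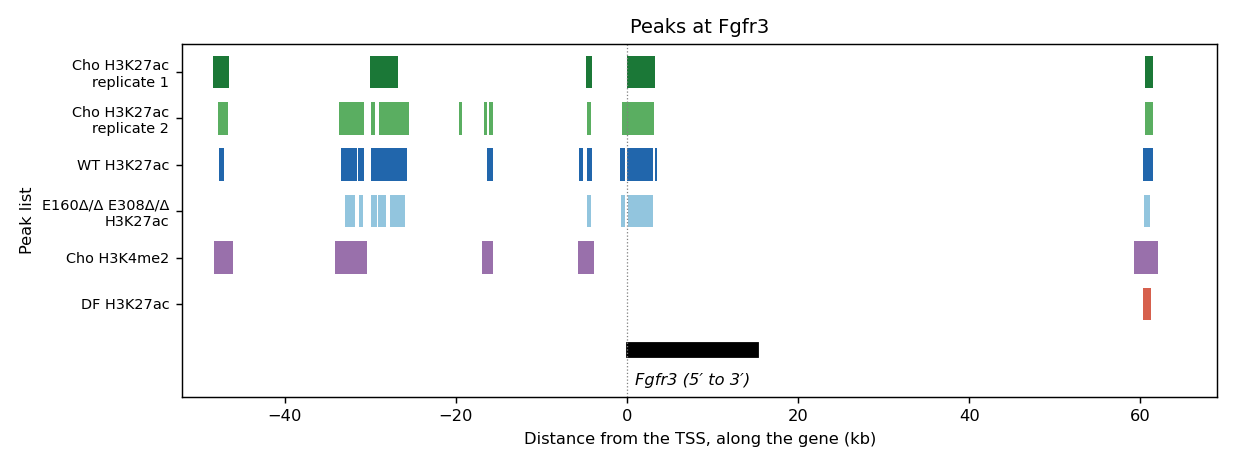
Peaks within 50 kb of Fgfr3 in the 6 lists (rows), plotted by distance from the TSS in kb; each coloured block is a peak and the black bar is the gene. The 4 chondrocyte H3K27ac lists share the promoter, the peak at 4.4 kb and the region around 28 kb upstream, while the single DF peak is at the Letm1 promoter.

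The 300 bases around the WT summits at 4.4 and 28 kb upstream are given because these are the distal sites at Fgfr3 that were shared by all 4 chondrocyte H3K27ac lists and lacked a DF peak (mm9, plus strand). Capitals mark ACAAAG, a core of SOX factor motifs, or its reverse complement. TGANTCA, the AP-1 motif, was searched on both strands too and was not found in these windows.
Fgfr3 4.4 kb upstream, chr5:34059771-34060070: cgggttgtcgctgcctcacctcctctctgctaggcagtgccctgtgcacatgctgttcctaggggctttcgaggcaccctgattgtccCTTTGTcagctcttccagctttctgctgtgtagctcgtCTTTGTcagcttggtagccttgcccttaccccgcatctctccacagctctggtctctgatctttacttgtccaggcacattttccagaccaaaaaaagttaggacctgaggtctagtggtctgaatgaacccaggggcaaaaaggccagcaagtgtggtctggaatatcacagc
Fgfr3 28 kb upstream, chr5:34035438-34035737: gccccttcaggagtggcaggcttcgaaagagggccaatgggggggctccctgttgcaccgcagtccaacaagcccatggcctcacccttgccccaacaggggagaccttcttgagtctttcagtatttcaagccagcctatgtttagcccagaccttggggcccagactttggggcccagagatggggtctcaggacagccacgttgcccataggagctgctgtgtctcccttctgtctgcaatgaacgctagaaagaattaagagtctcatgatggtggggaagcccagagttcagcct
The window at 4.4 kb upstream held ACAAAG 2 times and the window at 28 kb upstream held none. Of 21075 distal WT summit windows of this length, 25.3% held it. Replicate 1 had 9 distal peaks near members without DF that were shared with replicate 2 and WT, and the WT peaks there gave 9 such windows. ACAAAG was in 3 of them and TATAAA in 1 (14.3% of distal windows). None held GGGCGG (6.77%), none the ETS motif CCGGAAG (1.92%) and none TGANTCA (9.56%). The windows with ACAAAG were those at Fgfr1, at Fgfr4 and at 4.4 kb upstream of Fgfr3, and TATAAA was in the Fgfr4 window. At Fgfr1 and Fgfr4 the WT peak itself overlapped a DF peak, so the counts do not describe sites without DF alone.

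In the 4 chondrocyte H3K27ac lists Fgfr2 had the most peaks of the 10 genes. WT had 40 peaks near it, a number reached by 0.0439% of all genes. E160Δ/Δ E308Δ/Δ had 27, replicate 2 had 13, replicate 1 had 10, H3K4me2 had 18 and DF had 5. In the gene body, in the same order of lists, there were 28, 21, 8, 6, 11 and 1 peaks. The Fgfr2 gene is long (104 kb in the model used), and its gene-body peaks in the mm9 lists lay in introns but for 1 each in WT, E160Δ/Δ E308Δ/Δ and H3K4me2.

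At the Fgfr2 promoter every H3K27ac list had a peak that extended into the gene. It was 4.34 kb wide in replicate 1 (chr7:137405451-137409790, rank 13.7%), 3.52 kb in replicate 2 (18.4%), 8.05 kb in WT (4.18%), 7.21 kb in E160Δ/Δ E308Δ/Δ (4.28%) and 2.85 kb in DF (30.1%). DF had the narrowest peak and the lowest rank. H3K4me2 had no peak at this promoter, its nearest being 7.04 kb from the start of the gene model, and a promoter marked in both chondrocyte replicates and not for H3K4me2 was found at 0.659% of all genes. Fgfr3 and Fgf7 shared this gap. Among promoters under a WT peak of 5 kb or more, as at Fgfr2 and Fgf7, the share unmarked for H3K4me2 was 27.8%.

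Replicate 1 had 9 distal peaks near Fgfr2, and 7 of them lacked a DF peak. Those 7 comprised the 6 in the gene body, all of which had an H3K4me2, a WT and an E160Δ/Δ E308Δ/Δ peak, and 1 downstream of the gene. Replicate 2 shared 3 of the 6. The highest-scoring was an intronic peak 81.6 to 84.4 kb from the TSS (chr7:137325930-137328721, rank 44.0%), and the other intronic sites shared with replicate 2 were at 51.0 and 61.7 kb, with ranks of 50.9% and 76.2%. The only DF peak in the gene body lay 92.1 to 92.6 kb from the TSS (rank 82.0%), and replicate 2, H3K4me2, WT and E160Δ/Δ E308Δ/Δ had it too. DF also had the flanking sites at 22 kb upstream and 137 kb downstream that were present in all 5 other lists, and a peak 125 kb downstream (chr7:137284529-137285420, rank 59.3%) that among the other lists overlapped only a WT peak of rank 99.97%.

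**Figure D3:**
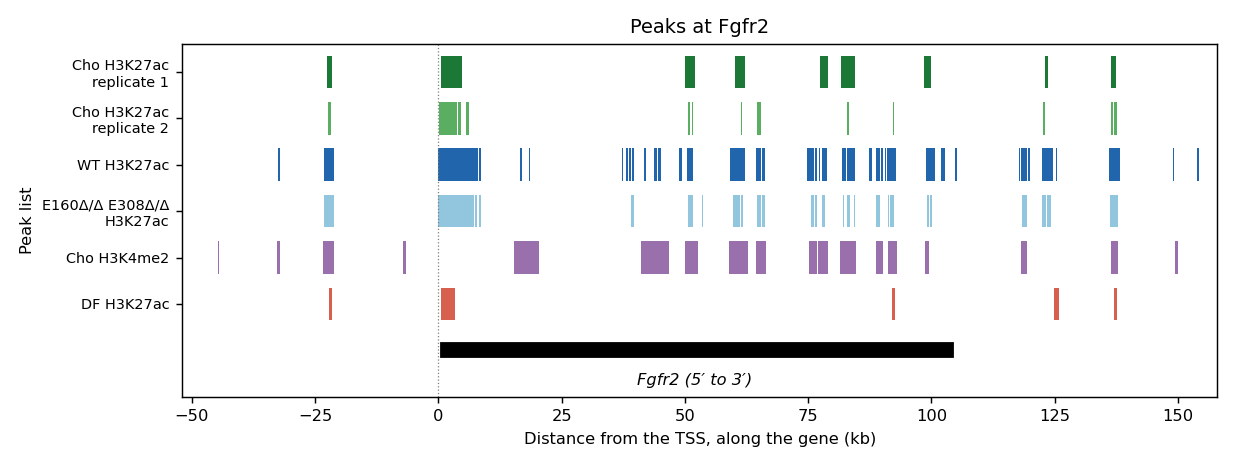
Peaks within 50 kb of Fgfr2 in the 6 lists (rows), plotted by distance from the RefSeq TSS in kb; each coloured block is a peak and the black bar is the gene model. The intronic peaks from about 37 kb to the 3′ end are densest in WT, thinner in E160Δ/Δ E308Δ/Δ and the 2 replicates, and include 1 DF peak.

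The Fgfr2 promoter (RefSeq, GRCm38.p6, minus strand) is printed for its contrast with Fgfr3: it held no GC box, and had 43.7% GC and a CpG ratio of 0.282, the lowest of the 8 members with a matched promoter. With it is the 300-base window (mm9, plus strand) at the WT summit of the intronic site about 61 kb from the TSS, where the WT peak was 2.95 kb wide with a rank of 34.3%. Capitals would mark GGGCGG in the first and ACAAAG in the second, and neither was present.
Fgfr2 promoter, chr7:130266759-130267058: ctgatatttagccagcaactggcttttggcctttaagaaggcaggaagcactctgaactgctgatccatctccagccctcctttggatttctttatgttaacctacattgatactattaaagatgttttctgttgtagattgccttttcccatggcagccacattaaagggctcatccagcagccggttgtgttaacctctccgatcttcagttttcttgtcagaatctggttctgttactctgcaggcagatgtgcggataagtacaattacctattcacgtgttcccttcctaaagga
Fgfr2 intron, chr7:137349364-137349663: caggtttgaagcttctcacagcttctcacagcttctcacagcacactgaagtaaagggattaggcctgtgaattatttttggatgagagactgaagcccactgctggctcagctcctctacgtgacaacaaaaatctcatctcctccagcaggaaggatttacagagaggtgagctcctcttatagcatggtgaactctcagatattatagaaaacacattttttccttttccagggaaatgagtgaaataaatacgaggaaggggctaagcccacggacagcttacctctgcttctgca
In mm9 this RefSeq start lies 563 bp upstream of the gene model used for the promoter call, at the edge of the WT and E160Δ/Δ E308Δ/Δ peaks, and distances at Fgfr2 are counted from it. The promoter peaks of replicate 1, replicate 2 and DF began 532, 164 and 451 bp after it. The printed promoter window therefore lies outside the peaks of those lists.

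Fgfr1, the main receptor of mesenchymal cells, was marked much alike in both cell types. Its promoter peak was 3.43 kb wide in replicate 1 (chr8:26629265-26632690, rank 14.7%), 1.70 kb in replicate 2 (20.4%), 3.52 kb in WT (8.10%), 3.36 kb in E160Δ/Δ E308Δ/Δ (8.53%), 2.78 kb for H3K4me2 (14.3%) and 3.29 kb in DF (7.48%). Replicate 1 and DF each had 6 peaks near the gene and 3 in its body. An intronic site at about 17 to 20 kb was present in all 6 lists. The replicate 1 peak without a DF peak, at 25.8 to 26.7 kb (chr8:26655100-26655993, rank 70.3%), adjoined one that DF shared. DF had a peak of 0.479 kb at 55.8 kb, on an annotated UTR of Fgfr1 near its 3′ end (chr8:26685087-26685565, rank 81.9%), which was in no chondrocyte H3K27ac list and in the H3K4me2 list.

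Fgfr4, the receptor best known from liver and muscle, had no promoter H3K27ac in either cell type. Its promoter was marked for H3K4me2 only, by a peak of 1.71 kb (chr13:55253691-55255405, rank 30.1%), as were 14.5% of all promoters. The nearest H3K27ac peak to the start of the gene model was at 3.18 kb in replicate 1, 3.33 kb in WT and 3.40 kb in E160Δ/Δ E308Δ/Δ, and at 29.6 kb in replicate 2 and in DF. The first of these was the highest-scoring replicate 1 peak without a DF peak (chr13:55249907-55250825, rank 52.2%). Further downstream, sites at about 30 and 37 kb were found in all 6 lists, with best ranks there of 7.95% in replicate 1, 0.613% for H3K4me2 and 9.73% in DF. Other peaks near Fgfr4 lay at the promoters of its neighbours Zfp346 and Nsd1 and, for H3K4me2 and WT, 18.9 kb downstream of the TSS.

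The 37 kb site is shown because it ranked highest of all peaks near Fgfr4 in the H3K4me2 list and in replicate 1 (mm9, plus strand, at the WT summit). Capitals mark ACAAAG, which occurred 3 times.
Fgfr4 37 kb downstream, chr13:55291169-55291468: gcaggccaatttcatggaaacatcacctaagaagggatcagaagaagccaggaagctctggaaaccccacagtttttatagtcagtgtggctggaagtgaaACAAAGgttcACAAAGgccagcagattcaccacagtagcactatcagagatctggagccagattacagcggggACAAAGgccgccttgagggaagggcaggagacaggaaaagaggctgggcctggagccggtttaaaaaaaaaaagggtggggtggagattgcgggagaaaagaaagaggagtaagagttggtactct
A replicate 1 peak of 0.569 kb at the edge of this site had no DF peak, but the printed window lies under the main DF peak of the site.

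Among the ligands, Fgf18 was the gene on which the chondrocyte lists disagreed. WT had a promoter peak of 2.55 kb (chr11:33047336-33049889, rank 39.2%, 9.62-fold) and E160Δ/Δ E308Δ/Δ one of 0.699 kb (56.3%, 6.40-fold), and H3K4me2 had a peak of 4.96 kb (33.9%). Replicates 1 and 2 and DF had none, with their nearest peaks 12.9, 4.61 and 14.7 kb from the TSS. A promoter marked in WT and E160Δ/Δ E308Δ/Δ and in neither replicate nor DF was found at 0.703% of all genes. Replicate 2 shared with WT and E160Δ/Δ E308Δ/Δ a peak about 5 kb upstream. The best peaks near Fgf18 in every H3K27ac list belonged to the promoter of Npm1, a nucleolar gene about 15 kb away, and an intronic site 24.5 kb into Fgf18 was in DF (chr11:33022695-33023163, rank 78.2%), WT and H3K4me2.

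Fgf2 was marked in all 6 lists, weakly in the replicates. Its promoter peak was 0.299 kb in replicate 1 (chr3:37247173-37247471, rank 84.6%) and 0.290 kb in replicate 2 (81.3%), against 1.27 kb in WT (20.1%), 1.21 kb in E160Δ/Δ E308Δ/Δ (31.7%), 2.21 kb for H3K4me2 (9.93%) and 1.04 kb in DF (37.5%). DF thus ranked above both replicates and below WT. The peak of replicate 1 lay upstream of the TSS and that of replicate 2 spanned it, without overlap by distance. In the gene body, replicate 1 had 0 peaks, replicate 2 had 4, WT 8, E160Δ/Δ E308Δ/Δ 9, H3K4me2 5 and DF 1. The DF peak lay at 52.9 to 54.1 kb (chr3:37300486-37301716, rank 64.7%) and was shared with WT, E160Δ/Δ E308Δ/Δ and H3K4me2. Outside the gene, the H3K27ac peaks were mostly those of neighbouring promoters, Bbs12 and Cetn4 upstream and Nudt6 and Spata5 downstream.

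Fgf7 was marked in all 5 H3K27ac lists, with widths that varied widely. The promoter peak measured 1.60 kb in replicate 1 (chr2:125859452-125861052, rank 70.0%), 0.885 kb in replicate 2 (68.0%), 9.48 kb in WT (15.4%), 5.13 kb in E160Δ/Δ E308Δ/Δ (24.0%) and 4.91 kb in DF (57.0%). The DF peak was wider than those of both replicates and narrower than those of the other 2 chondrocyte libraries. No H3K4me2 peak lay closer than 2.65 kb, while 3 lay in the gene body where no H3K27ac list had a partner. Fgf7 lies inside an intron of the annotated gene 4930525F21Rik, so that peaks here cannot be assigned to either gene.

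The feedback inhibitors had few peaks, and all 3 promoters were marked in both cell types. In the H3K27ac lists Dusp6 ranked highest of the 3, with promoter peaks of 4.17 kb in replicate 1 (chr10:98723313-98727478, rank 5.93%), 1.95 kb in replicate 2 (5.44%), 5.85 kb in WT (6.34%), 2.13 kb in E160Δ/Δ E308Δ/Δ (8.03%), 6.63 kb for H3K4me2 (45.5%) and 2.39 kb in DF (7.31%). The DF peak ended 0.089 kb before the TSS, whereas the peaks of replicate 1 and WT spanned the TSS and reached 1613 and 3487 bp into the gene. Replicate 2 and E160Δ/Δ E308Δ/Δ had 2 promoter peaks each, 3.79 and 5.18 kb in total. The better-scoring of these, given above, also ended before the TSS. The other lay in the gene, 0.034 and 0.075 kb from the TSS. Distal peaks about 26 to 19 kb upstream of Dusp6 were present in all 4 chondrocyte H3K27ac lists, at 26.0 kb in replicate 1 (chr10:98699666-98700156, rank 88.6%) and at about 20 kb in the others, WT having both. DF had none.

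Spry2 was covered broadly in all H3K27ac lists. Its promoter peak was 4.24 kb in replicate 1 (chr14:106292081-106296316, rank 18%), 4.05 kb in replicate 2 (10.9%), 6.45 kb in WT (10.1%), 4.28 kb in E160Δ/Δ E308Δ/Δ (8.70%) and 7.23 kb in DF (49.4%), and the H3K4me2 peak of 1.93 kb (24.9%) ended 0.992 kb before the TSS. The DF peak was the widest of the 6 and had the lowest rank of the 6, each ranked in its own list. Replicate 1 had no other peak near Spry2. DF had 1, of 0.358 kb at 25.3 kb upstream (chr14:106321189-106321546, rank 95.0%), in the H3K4me2 list but in no chondrocyte H3K27ac list.

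At Spry4 the replicates differed in rank. The promoter peak was 0.647 kb in replicate 1 (chr18:38760439-38761085, rank 97.3%), whereas replicate 2 had 2 peaks there, the better of 0.465 kb (33.1%). WT had 2.83 kb (22.5%), E160Δ/Δ E308Δ/Δ 1.77 kb (25.7%), H3K4me2 3.70 kb (16.0%) and DF 1.16 kb (49.7%). An intronic site of the neighbour Arhgap26, 30.4 kb upstream of Spry4, was in DF (chr18:38790814-38791837, rank 27.1%), replicate 2, WT, E160Δ/Δ E308Δ/Δ and H3K4me2 and missing only from replicate 1. A second DF peak without a replicate 1 peak, 22.9 kb downstream, had a partner in no other list. Peaks at the Spry4 promoter cannot be told apart from those of Arhgap26 and 9630014M24Rik, whose transcripts overlap it.

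Over all 10 genes, replicate 1 had 44 peaks near members, replicate 2 had 63, WT 102, E160Δ/Δ E308Δ/Δ 82, H3K4me2 86 and DF 30. The 10 genes had a median of 4 peaks in replicate 1 and 2.5 in DF, where all genes had a median of 2 in both. Of the 44 replicate 1 peaks, 20 (45.5%) had no DF peak, against 48.3% of all replicate 1 peaks. For distal peaks, those away from any TSS, the counts were 17 of 23 (73.9%) against 74.1% of all. The members as a group therefore stood at the background. With WT in place of replicate 1 they did not: 73 of 102 WT peaks near members had no DF peak (71.6%) against 56.4% of all WT peaks, and 65 of 77 distal ones (84.4%) against 76.9%. Fgfr2 alone held 40 of the 102 WT peaks and 35 of the 73 without DF. Of the distal ones it held 39 of the 77 and 35 of the 65. Much of the WT share thus came from 1 long gene and is not a trait of the members as a group. By role, the replicate 1 peaks without DF numbered 16 of 30 at receptors, 3 of 10 at ligands and 1 of 4 at feedback inhibitors. In WT they numbered 49 of 65, 16 of 24 and 8 of 13, and replicate 2 had 22 of 38, 6 of 14 and 5 of 11, so that the roles lay closer together there. The roles also differed in their kind of peak. Distal peaks made up 21 of the 30 replicate 1 peaks at receptors, 1 of 10 at ligands and 1 of 4 at inhibitors. Of the distal receptor peaks, 15 of 21 (71.4%) lacked DF, below the 74.1% of all, and both other distal peaks lacked it too. In replicate 1, Fgfr2 and Fgfr3 held 13 of the 20.

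Of these 20 peaks, 12 were also present in replicate 2 and in WT. Fgfr3 held 5 of them, Fgfr2 held 3, and Fgfr1, Fgfr4, Fgf2 and Fgf18 held 1 each, those of Fgf2 and Fgf18 lying at neighbouring promoters. Fgf7 and the 3 inhibitors held none. A replicate 1 peak without DF was found near 8 of the 10 genes, and near 46.6% of all genes. A WT peak without DF was found near all 10 and near 51.8% of all genes. Replicate 1 and its own replicate differed too: 35 of the 44 peaks had a replicate 2 peak by distance from the TSS, and 43 had a WT peak. Shares over all replicate 1 peaks were not computed for these counts or for the 12, which therefore cannot be set against the whole list.

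In the other direction, 8 of 30 DF peaks near members (26.7%) had no replicate 1 peak, against 37.6% of all DF peaks. All 8 were distal, of 14 distal DF peaks (57.1%, all distal DF peaks 60.1%), and they lay near 6 of the 10 genes (39.1% of all genes). Set against WT, 3 of 30 had no partner, and 26.2% of all DF peaks. These 3, at Fgfr1, Spry2 and Spry4 as given above, were in no chondrocyte H3K27ac list. No member promoter was marked in DF and unmarked in both replicates, a pattern found at 3.82% of all genes. None was marked in DF and unmarked in replicate 1 (6.39%) or unmarked in all 4 chondrocyte H3K27ac lists (1.74%).

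**Figure D4:**
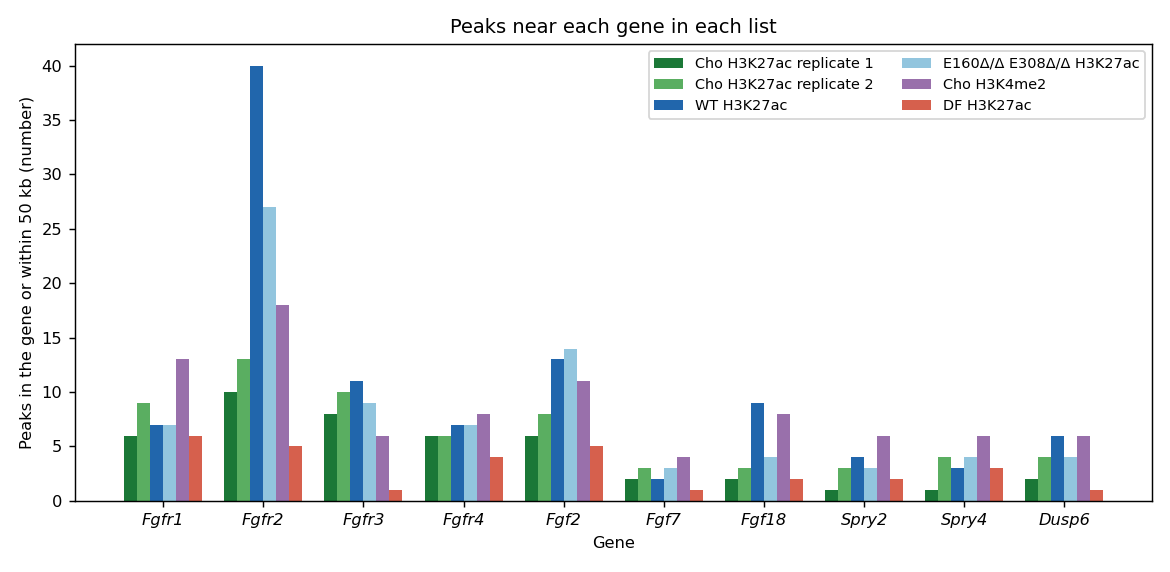
Number of peaks in each gene or within 50 kb of it (vertical axis) for the 10 genes (horizontal axis) in the 6 lists (bar colours, without replicate error). The WT list reaches 40 at Fgfr2, and DF has 1 peak at Fgfr3, Fgf7 and Dusp6.

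The length under H3K27ac peaks near each gene gave the same leading genes. Fgfr3 had 0.900 kb in DF and 9.96, 14.5, 14.1 and 9.66 kb in replicate 1, replicate 2, WT and E160Δ/Δ E308Δ/Δ. Fgfr2 had 5.45 kb in DF and 17.1, 9.06, 40.5 and 24.0 kb in the same order. The excess of replicate 1 over DF was 9.06 kb at Fgfr3 and 11.7 kb at Fgfr2, reached by 1.20% and 0.555% of all genes, whose median was 0.060 kb.

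DF was below all 4 chondrocyte lists at 4 genes, Fgfr2, Fgfr3, Fgf18 and Dusp6, and this held for 15.9% of all genes. The lists differ in total length, from 18.3 Mb in replicate 2 to 36.0 Mb in WT with 22.5 Mb in DF, and after division by it the same 4 genes remained (13.0% of all genes). On that scale Spry2 was below DF in all 4 chondrocyte lists, as were 30.5% of all genes. Fgfr1 and Fgf7 were above DF in 2 chondrocyte lists and below it in 2, on both scales. Replicate 1, taken by itself, was below DF at 5 genes (Fgfr1, Fgf2, Fgf7, Spry2 and Spry4), at all of which WT was above DF in kb. The share of all genes with replicate 1 below DF was not computed. Of these genes, replicate 2 was also below DF at Fgfr1, Fgf7 and Spry2, and E160Δ/Δ E308Δ/Δ at Spry2. After division by list length, WT was above DF at Fgf2, Fgf7 and Spry4 and below it at Fgfr1 and Spry2.

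**Figure D5:**
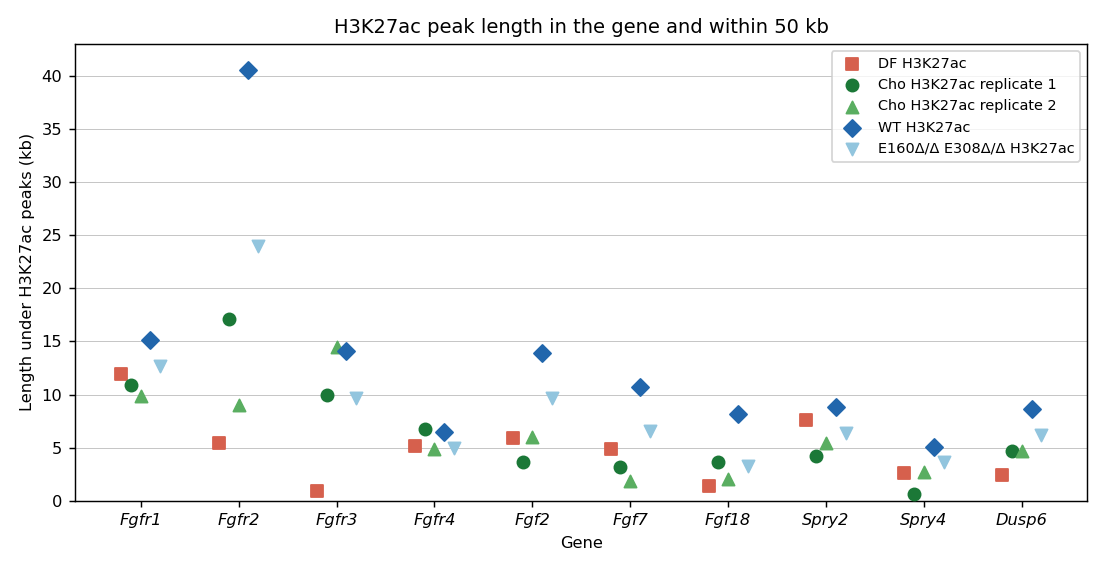
Length under H3K27ac peaks in each gene and within 50 kb (kb, vertical axis) for the 10 genes; each symbol is 1 library, without replicate error. At Fgfr2, Fgfr3, Fgf18 and Dusp6 the DF square lies below every chondrocyte symbol.

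H3K4me2 and H3K27ac were compared at the same sites in chondrocytes. Of the 44 replicate 1 peaks near members, 36 had an H3K4me2 peak (90.2% of all replicate 1 peaks did), namely 4 of 8 at member promoters and 20 of 23 distal ones. In WT an H3K4me2 peak was found for 7 of 10 at member promoters and 48 of 77 distal ones. The 8 replicate 1 peaks without one were at the promoters of Fgfr2, Fgfr3, Fgf7 and Spry2, at both parts of the region 28 kb upstream of Fgfr3, 123 kb downstream of Fgfr2, and at the Spata5 promoter beyond Fgf2. By promoter, 3 of the 8 marked in replicate 1 were unmarked for H3K4me2, against 1.76% of all and against the 27.8% given above for promoters as broad as those of Fgfr2 and Fgf7. In reverse, 29 of the 86 H3K4me2 peaks near members had a DF H3K27ac peak and 31 a replicate 1 peak. Shares over all peaks were not computed for promoter and distal peaks apart, for WT or for the H3K4me2 list. Those counts therefore cannot be set against the lists as a whole.

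All 9 member promoters marked in WT were marked in E160Δ/Δ E308Δ/Δ, where 2.88% of all genes were marked in WT alone. Fold enrichment over the local background was lower in E160Δ/Δ E308Δ/Δ at 8 of the 9, as at 97.1% of all 8670 promoters marked in both. Fgfr3 went from 19.1 to 13.7, Fgfr2 from 33.1 to 25.6, Fgf18 from 9.62 to 6.40 and Fgf2 from 17.8 to 9.87. The ratio of the deletion value to the WT value had a median of 0.696 over the 9 genes and 0.691 over all. Spry2 alone had a higher value, 17.9 against 16.0 (ratio 1.12), and 98.7% of promoters had a ratio at or below that. The best peak at Fgf7 measured 9.48 kb in WT and 5.13 kb in the deletion. At Dusp6, WT had 1 promoter peak of 5.85 kb. The deletion had 2 there, of 5.18 kb in total, the wider of 3.05 kb.

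Of the 102 WT peaks near members, 43 (42.2%) lacked a partner in the deletion library, against 37.2% of all WT peaks, and for distal peaks 38 of 77 (49.4%) against 50.9%. Such a peak was found near 8 of the 10 genes, and near 46.3% of all genes. None of the 26 in the best-scoring 25% of the WT list was missing (0.0120% of all WT peaks there), and none of the 20 ranked from 25 to 50% (4.15%). Of the 23 ranked from 50 to 75%, 12 were missing (52.2%, all 52.5%), and of the 33 in the lowest 25%, 31 (93.9%, all 88.5%). At Fgfr2, 21 of 40 WT peaks were missing, 15 of them in introns and 6 intergenic, the best-scoring 154 kb downstream (chr7:137256075-137256401, rank 63.6%). The length under peaks at Fgfr2 was 0.592 times that of WT, against 0.655 times for the whole lists, and at Fgf18 it was 0.394 times. With 1 library of each genotype, genotype and library cannot be told apart.

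The wider pathway was examined with a fixed list of 61 other FGF signalling genes, of which 59 had a position. Their promoters were marked for 33 in replicate 1, 35 in replicate 2, 40 in WT, 38 in E160Δ/Δ E308Δ/Δ, 51 for H3K4me2 and 40 in DF. None was marked in both replicates and not in DF, against 1.64% of all genes. Of the 18 signal transducers, 17 were marked in all 5 H3K27ac lists, the exception being the adaptor Frs2, unmarked in replicate 1. Of the 14 other ligands, 11 were marked in no H3K27ac list and 7 of those had H3K4me2.

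In this list 3 of 59 genes were marked in DF and in neither replicate, near the 3.82% of all genes. Fgf10, a mesenchymal ligand of Fgfr2, had a DF peak of 4200 bp (rank 22.1%) and in WT a peak of 299 bp (88.4%). Fgf9, a ligand with high affinity for Fgfr3, had a DF peak of 458 bp (67.4%) and no chondrocyte H3K27ac peak. Il17rd, a membrane inhibitor of FGF signalling also known as Sef, had a DF peak of 673 bp (52.9%), and peaks in WT (45.1%) and E160Δ/Δ E308Δ/Δ (79.0%). All 3 promoters had an H3K4me2 peak in chondrocytes.

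Of the 8 members with a RefSeq promoter sequence, 9 promoters in all, GGGCGG was found at Fgfr3, Fgfr4, Fgf2 and Fgf18 and ACAAAG at Fgf7 and Spry2, where 18.7% of all promoters of this length hold it. None held TATAAA, the TATA box, which is in 13.6% of all promoters. None held the ETS motif CCGGAAG (8.86%) or the AP-1 motif TGANTCA (7.81%), and all motifs were searched on both strands. A CpG ratio of at least 0.6 was found for 8 of the 9, Fgfr2 being the exception. Of the members with a sequence, Fgfr3, Fgfr4 and Fgf18 had no DF promoter peak and held GGGCGG. Of those with a DF peak, Fgf2 held it and Fgfr2, Fgf7, Spry2 and Dusp6 did not, the Fgfr2 sequence lying outside its DF peak. Fgfr4 was also unmarked in every chondrocyte H3K27ac list and Fgf18 in both replicates, so this sorting is not particular to DF. How GGGCGG relates to DF peaks over all promoters was not tested.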

How the data were processed

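The deposited peak lists were the starting point. The methods and the submitters' processing notes name fastp for read cleaning, Bowtie2 (2.4.4) for mapping to mm9 and MACS2 (2.2.4) for peak calling. Peaks were called by the authors for each library with input as control. In 3 lists (chondrocyte H3K27ac replicate 1, chondrocyte H3K4me2 and DF) the deposited value is a score alone. The other 3, in narrowPeak format, hold the authors' score, the deposited fold enrichment (a ratio over the local background) and the −log10 p and −log10 q deposited for each peak. How the formats came to differ was not given in the sources used here, and a list without a peak may differ for that reason.

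Peaks on the autosomes and X were placed on GENCODE vM1 genes in mm9, using for each gene the protein-coding transcript nearest in length to its RefSeq gene, and on RefSeq GRCm38.p6 genes for replicate 2. Replicate 2 peaks were compared with other lists by distance from the same promoter base, matched by RefSeq promoter sequence for 8 members and by gene model for Fgfr1 and Spry4. Neighbouring promoters are less completely annotated for replicate 2. Overlap needed 1 bp. "Distal" means over 1 kb from any annotated TSS. Peak calling without read numbers leaves the depth unknown, so absence of a peak is not absence of the mark. No test was run. Overlap and promoter counting were checked on simulated lists. Python 3.11.15, numpy 2.4.6, pandas 2.3.3 and matplotlib 3.10.9 were used.

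The members and lists were chosen with earlier results of these data known. All members are named, each with its promoter peak and, at most, the highest-scoring replicate 1 peak without DF, DF peak without replicate 1 and WT peak without the deletion. Other peaks, and the distal windows whose sequence is printed, were chosen after their values were seen. Alternatives were promoter windows of 500 bp and 2 kb, the TSS of any annotated transcript, distances of 20 and 100 kb, reciprocal overlap of 50%, only peaks scoring in the upper 50% of their list, lists cut to one size by score, joining of peaks with gaps below 1 kb, and the WT list or replicate 2 in place of replicate 1. The outermost 5′ end of each gene was added after seeing the data. The Fgfr1 and Spry4 promoter sequences are not shown.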

Additional observations from a re-analysis of the deposited data

How the results depend on the processing

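No paired analysis was possible because no comparison had a test and only chondrocyte H3K27ac had 2 libraries. Of 64 recomputed counts, 42 stayed within 1.5 times the reported one and 22 did not. Promoter counts moved once: with the higher-scoring 50% of each list, replicate 1 marked 5 of 10 promoters, losing Fgf2, Fgf7 and Spry4. Fgfr3 stayed marked in the 4 chondrocyte H3K27ac lists and unmarked in DF under the 500 bp and 2 kb windows and that filter.

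The reported 20 replicate 1 peaks without a DF peak became 13 within 20 kb, 8 in the higher-scoring 50%, 13 with equal numbers of top peaks and 13 after merging, and 33 to 73 without replicate 1. The 8 DF peaks without a replicate 1 peak became 5 within 20 kb, 13 within 100 kb, 14 at 50% reciprocal overlap and 4 in the higher-scoring 50%, and 3 to 6 without replicate 1. The 36 replicate 1 peaks with H3K4me2 became 21 within 20 kb, 57 within 100 kb, 18 at 50% reciprocal overlap, 16 in the higher-scoring 50% and 20 with equal numbers. The 43 WT peaks without a deletion peak became 16, 13 and 22 in the higher-scoring 50%, with equal numbers and after merging. Members with a replicate 1 peak without DF fell from 8 to 4 in the higher-scoring 50% and 5 after merging, and were 8 to 10 without replicate 1. The wider distances, filters and merging change how many peaks are counted by their construction. The TSS of any transcript was not run for replicate 2. Unknown depth limits every absence of a peak.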
